A study of Mus musculus with 20 samples.

Results

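What remained abnormal in the kidney of Alport mice under anti-miR-21 therapy, and what was back at the level of healthy mice, was examined in 11 of the 20 mice of the series: all 6 treated Col4a3-/- mice (Anti-miR-21) and all 5 wild-type mice (WT). Both groups were males of a cross of 129SJ and C57Bl/6J mice, and total RNA of the whole kidney was sequenced from kidneys taken at an age of 15 weeks. Mice of the treated group carry a constitutive disruption of Col4a3, which encodes the α3 chain of type IV collagen, and were injected subcutaneously with lademirsen, an oligonucleotide that inhibits miR-21, at 50 mg/kg once weekly from 5 weeks of age. The WT mice carry intact Col4a3 and were given no injection, so a difference between the groups holds the genotype, the remaining disease, the oligonucleotide and the injections together, and these cannot be told apart. The 6 Col4a3-/- mice that received PBS on the same schedule (Veh) are used to say how far a gene had moved without the drug. The Veh and the Anti-miR-21 mice are set against the same 5 WT mice, so their differences from WT are given side by side and are not independent.

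The α3, α4 and α5 chains of type IV collagen form the network of the mature glomerular basement membrane. Without one of them the filter leaks protein, the proximal tubule is injured, macrophages and T cells enter the interstitium, and fibroblasts lay down collagen. miR-21 is a microRNA that rises in injured kidney and pairs through its seed with messenger RNAs, among them those of PPARα, which drives fatty acid oxidation in the proximal tubule.

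The oligonucleotide binds mature miR-21, whose sequence (RefSeq, GRCm38.p6, 11:86584120-86584141, minus strand, within the bounds of the gene Vmp1) is shown with its seed, bases 2 to 8, in capitals. Below it stand 22-base windows of the 3' UTRs of 5 genes reported as targets in the literature (GENCODE annotation of GRCm38), with the 7 bases that pair with the seed, ATAAGCT, in capitals. They are shown because these are the transcripts on which the drug is meant to act.
mmu-miR-21a-5p: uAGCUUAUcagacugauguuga
Pdcd4, 19:53929424-53929445, plus strand: gtgttctgATAAGCTactttct
Ppara, 15:85801821-85801842, plus strand: atagtttgATAAGCTatcccat
Spry1, 3:37643865-37643886, plus strand: gtgcttaaATAAGCTatatatt
Reck, 4:43944399-43944420, plus strand: agtttgaaATAAGCTattaatg
Timp3, 10:86348219-86348240, plus strand: agctttcaATAAGCTatagctt

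The libraries of both groups held between 28630601 and 29479629 estimated counts on genes. Col4a3 had 194, 208.4, 222, 222 and 238 CPM in the WT mice and 45.9 to 74.9 CPM in the Anti-miR-21 mice, with a median of 55.7. All 6 treated mice were below all WT mice (log2 difference −1.88 ± 0.14 SE, adjusted p = 1.75e-09), as their genotype labels state, while transcript from the disrupted gene was still counted. CPM values are counts brought to a common library size after TMM scaling, and the TMM factors, which correct for the few very abundant genes of a library, were 0.771 to 0.850 in WT and 0.881 to 1.04 in Anti-miR-21 mice. Flow cell A carried 5 of the treated and 3 of the WT mice, and flow cell B the other 1 and 2. In whole kidney, fewer cells of a type and less RNA per cell cannot be told apart.

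Of 17622 genes tested, 7699 (43.7%) still differed from WT under anti-miR-21 at an adjusted p under 0.05. The genes called higher numbered 4203 (23.9% of the genes tested) and those called lower 3496 (19.8%). The groups did not overlap, all 6 treated mice lying on one side of all 5 WT mice, for 4190 genes (23.8%). With scaling by library totals alone the genes called higher made up 88.6% of the calls against 54.6% with TMM scaling, because that scaling shifts the median gene from 0.01 to 0.26 on the log2 scale, so small differences are given below relative to the median gene. Differences of at least 2-fold were called for 2286 genes, of which 2044 were higher and 242 lower. Among the genes tested, large residual differences lay more often above WT than below. The filter kept genes with few or no counts in WT that were counted in other groups, and for these only upward differences could be large. With 10 counts required in every mouse, 1181 genes were called at 2-fold or more.

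Being back at WT level was tested on its own, since a gene that misses the threshold has not been shown to equal WT. An equivalence test of limma-voom fits placed 8295 genes (47.1%) within 1.5-fold of WT. Of these, 2480 were also called different by a small amount, and 4108 genes were neither called different nor shown to be within 1.5-fold.

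The Veh mice give the scale. In them 6869 genes (39.0%) were called higher and 5998 (34.0%) lower than WT, and 6145 of these differed by at least 2-fold. Under anti-miR-21, 369 of the 6145 genes (6.00%) were within 1.5-fold of WT, and 4422 were still called in the direction they had in the Veh mice. Of the 2248 genes that were lower in the Veh mice 311 (13.8%) were back at WT level, against 58 of the 3897 genes (1.49%) that were higher. The share of genes back at WT level was 3.38% without treated mouse A22, 3.92% without A12 and 3.97% without A15, and 3.98% without WT mouse A17. Low genes have wide intervals and rarely pass the equivalence test. Among genes averaging 5 log2 CPM or more, a limit chosen after seeing the data, the counts were 200 of 1116 lower genes (17.9%) and 26 of 450 higher genes (5.78%). The median difference from WT went from −1.57 in the Veh mice to −0.50 in the treated mice for the lower genes, and from 2.13 to 1.15 for the higher genes, on the log2 scale.

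The treated mice did not lie equally far from WT. The share of genes at least 2-fold from the mean of the WT mice was 12.04% in mouse A22, 14.5% in A15, 15.3% in A12, 17.6% in A10, 18.3% in A2 and 20.03% in A8. A WT mouse set against the other WT mice gave 5.62% to 8.27%, and the Veh mice gave 30.4% to 38.7%. No treated mouse reached the range of either group.

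**Figure D1:**
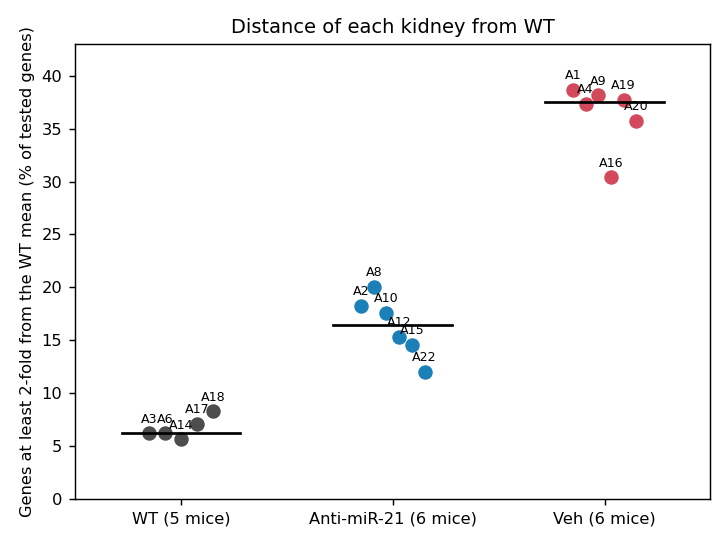
Percent of the 17622 tested genes that lay at least 2-fold from the mean of the WT mice (vertical axis) in each mouse, by group; each point is a mouse and each line a group median. The 6 Anti-miR-21 mice lie between 12.04% and 20.03%, above all WT mice and below all Veh mice.

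**Figure D2:**
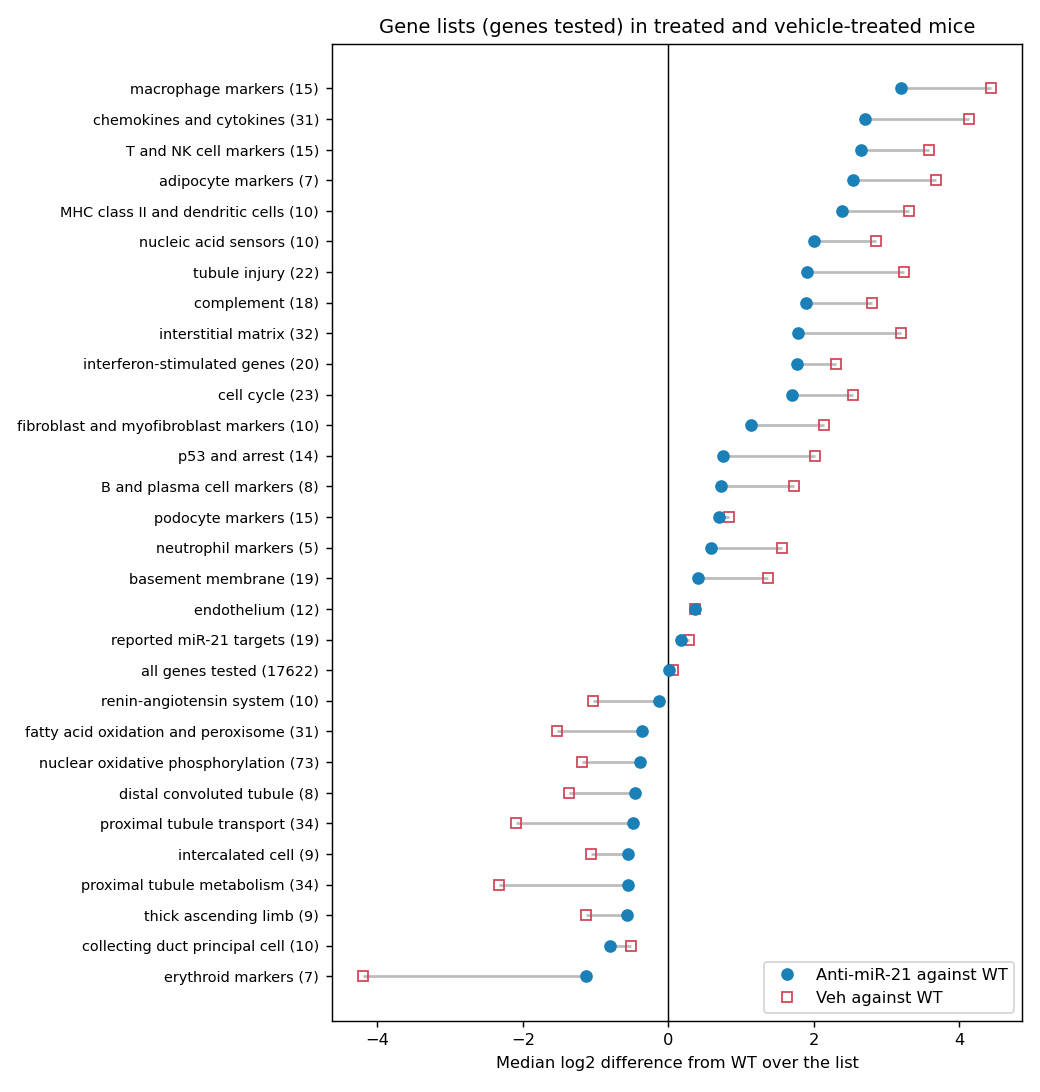
Median log2 difference from WT (horizontal axis) over the tested genes of each list, with the number of genes in parentheses; filled circles are Anti-miR-21 against WT and open squares Veh against WT, which share the WT mice. Most immune lists and the interstitial matrix and injury lists stay well above 0 under treatment. B and plasma cell markers (0.73), neutrophil markers (0.59) and basement membrane genes (0.41) lie lower. Tubular lists end between −0.80 and −0.36. The collecting duct median lies further from 0 than in the Veh mice, while the median of its genes between treated and Veh mice was 0.11.

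Inflammatory genes stayed far above WT. Of 31 chemokines and cytokines 28 were higher than WT and 1 was lower, against 23.9% and 19.8% of all genes. Their median log2 difference was 2.71, against 0.01 over all genes and 4.14 in the Veh mice. Relative to Veh, 21 of the 31 were lower and 1 was higher, against 30.5% and 28.8% of all genes, with a median of −0.82. Ccl2, the chemokine that draws monocytes out of the blood, had 0.401, 0.287, 0.0845, 0.164 and 0.419 CPM in the WT mice. In the Anti-miR-21 mice it had 17.8 to 46.7 CPM, with a median of 24.1, and in the Veh mice 25.2 to 57.9 CPM, with a median of 34.2. The treated mice were all above WT and overlapped with the Veh mice. The log2 difference from WT was 6.72 ± 0.40 (SE, adjusted p = 2.77e-10), and the difference from Veh was −0.41 with an adjusted p = 0.121.

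Other chemoattractants behaved alike against WT. Cxcl2, which attracts neutrophils, had at most 0.204 CPM in a WT mouse and at least 2.99 CPM in a treated mouse (log2 difference 5.65 ± 0.45 SE, adjusted p = 5.45e-09). Cxcl10, the interferon-induced attractant of T cells, had 0.891 to 2.37 CPM in WT and 24.1 to 43.6 CPM in treated mice (4.27 ± 0.39, adjusted p = 4.41e-08). Neither was called different between the treated and the Veh mice, with adjusted p = 0.131 and 0.168. The exception in the list was Ccl28, a chemokine of epithelia, which stayed below WT: 78.5, 60.5, 220, 151 and 111 CPM in the WT mice and 9.05 to 46.8 CPM in the treated mice (−2.39 ± 0.40, adjusted p = 8.86e-05).

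Ccl20, the ligand of CCR6, had no count in any WT mouse and 51, 93, 64, 30, 39 and 39 counts in the treated mice. Set against a floor of 3 counts per WT library, it was at least 14.7-fold higher. H2-M2, a class Ib gene of the major histocompatibility complex, had 1, 1, 3, 3 and 1 counts in the WT mice and 98 to 300 in the treated mice, a ratio of 84.0 with a 95% counting interval of 44.1 to 184. These intervals and floors cover counting error only.

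Macrophage markers were mostly above WT and mostly lower than in the Veh mice. Of 15 macrophage markers 13 were higher than WT, against 23.9% of all genes, and none was lower. Their median was 3.20 against 4.44 in the Veh mice. Relative to Veh 14 were lower, against 30.5% of all genes, with a median of −1.24. Adgre1, which encodes the macrophage protein F4/80, had 2.27, 4.76, 3.46, 3.52 and 2.52 CPM in WT and 20.3 to 36.7 CPM in treated mice (log2 difference 3.05 ± 0.21 SE, adjusted p = 8.11e-10). It was lower than in the Veh mice, which had 42.8 to 61.1 CPM (−0.95, adjusted p = 5.25e-05), and the 3 groups did not overlap.

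Of the 2 macrophage markers that were not called, Csf1r, the receptor for the macrophage growth factor CSF1, was the one shown to be at WT level. It had 109, 101, 116, 109 and 118 CPM in WT and 112 to 142 CPM in treated mice, within 1.5-fold of WT (95% interval of the log2 difference 0.02 to 0.32, adjusted p = 4.06e-05). Scaling by library totals alone or a stricter filter called it higher than WT. Gpnmb, a glycoprotein of macrophages singled out after its values were seen, went the other way and kept 5.35 to 31.1 CPM against at most 1.06 CPM in WT (4.52 ± 0.52, adjusted p = 8.66e-07; Veh, 5.89 to 33.6 CPM).

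All 10 genes of antigen presentation by MHC class II and of dendritic cells were higher than WT, against 23.9% of all genes. Their median was 2.39. Relative to Veh 7 of the 10 were lower, against 30.5% of all genes. Cd74, the invariant chain, had 211.9, 258, 265, 305 and 171 CPM in WT and 1331 to 2105 CPM in treated mice (log2 difference 2.80 ± 0.17 SE, adjusted p = 2.67e-10), and H2-Aa had 45.1 to 95.2 and 384 to 644 CPM. Both had come down from the Veh level by about 1 on the log2 scale (−1.06 and −1.02). Of 15 markers of T and NK cells 13 were higher than WT (median 2.65), against the same 23.9%, and 7 were lower than in the Veh mice. Cd3d, a chain of the T cell receptor complex, had 0.0409 to 0.338 CPM in WT and 0.849 to 1.51 CPM in treated mice (2.73 ± 0.43, adjusted p = 4.50e-05). Cd8a was called higher (1.29 ± 0.43, adjusted p = 0.0194), but without WT mouse A17 its adjusted p was 0.0501.

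Of 8 B and plasma cell markers 4 were higher, against 23.9% of all genes. Jchain, made by plasma cells, had 5.62 to 16.5 CPM in WT and 6.49 to 27.5 CPM in treated mice with no call (adjusted p = 0.661), whereas the Veh mice had 13.02 to 70.5 CPM. Of 5 neutrophil markers 2 were higher, and S100a8 stayed under 1 CPM in all mice of both groups.

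Innate humoral and antiviral genes were also still raised. Of 18 complement genes 14 were higher and 1 was lower than WT, against 23.9% and 19.8% of all genes. Their median was 1.89 against 2.80 in the Veh mice. Relative to Veh, 10 of the 18 were lower and 3 higher, against 30.5% and 28.8% of all genes. C3, the central component, had 31.6, 31.2, 23.1, 22.4 and 31.0 CPM in WT and 343 to 850 CPM in treated mice (log2 difference 4.40 ± 0.25 SE, adjusted p = 2.04e-10). The Veh mice had 685 to 1383 CPM of C3, which overlapped with the treated mice. C4b, the component of the classical and lectin pathways that feeds C3 cleavage, had 8.61 to 14.3 CPM in WT, 87.9 to 126 CPM in treated and 74.8 to 130 CPM in Veh mice. Its log2 difference from WT was 3.15 ± 0.16 (adjusted p = 1.55e-10), and the one from Veh was −0.08 with an adjusted p = 0.651. Cfb, factor B of the alternative pathway, singled out after its values were seen, was within 1.5-fold of WT instead, with 558 to 706 CPM against 542 to 706 CPM. It was not raised in the Veh mice, which had 326 to 527 CPM and were called lower than WT (−0.66, adjusted p = 1.63e-05).

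Of 20 interferon-stimulated genes 19 were higher than WT, against 23.9% of all genes. Their median was 1.77 against 2.31 in the Veh mice. Ifit1, which binds foreign RNA, had 1.22 to 2.58 CPM in WT and 5.40 to 9.96 CPM in treated mice (1.94 ± 0.23, adjusted p = 1.01e-06), and Isg15 had 0.671 to 3.24 and 5.13 to 8.61 CPM (1.83 ± 0.27, adjusted p = 2.26e-05). Of 10 sensors of nucleic acids 8 were higher, against the same 23.9%. Tlr7 had 0.294 to 1.60 CPM in WT and 2.51 to 5.72 CPM in treated mice (2.06 ± 0.30, adjusted p = 1.67e-05), and it was lower than in the Veh mice (−0.86, adjusted p = 0.00551).

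**Figure D3:**
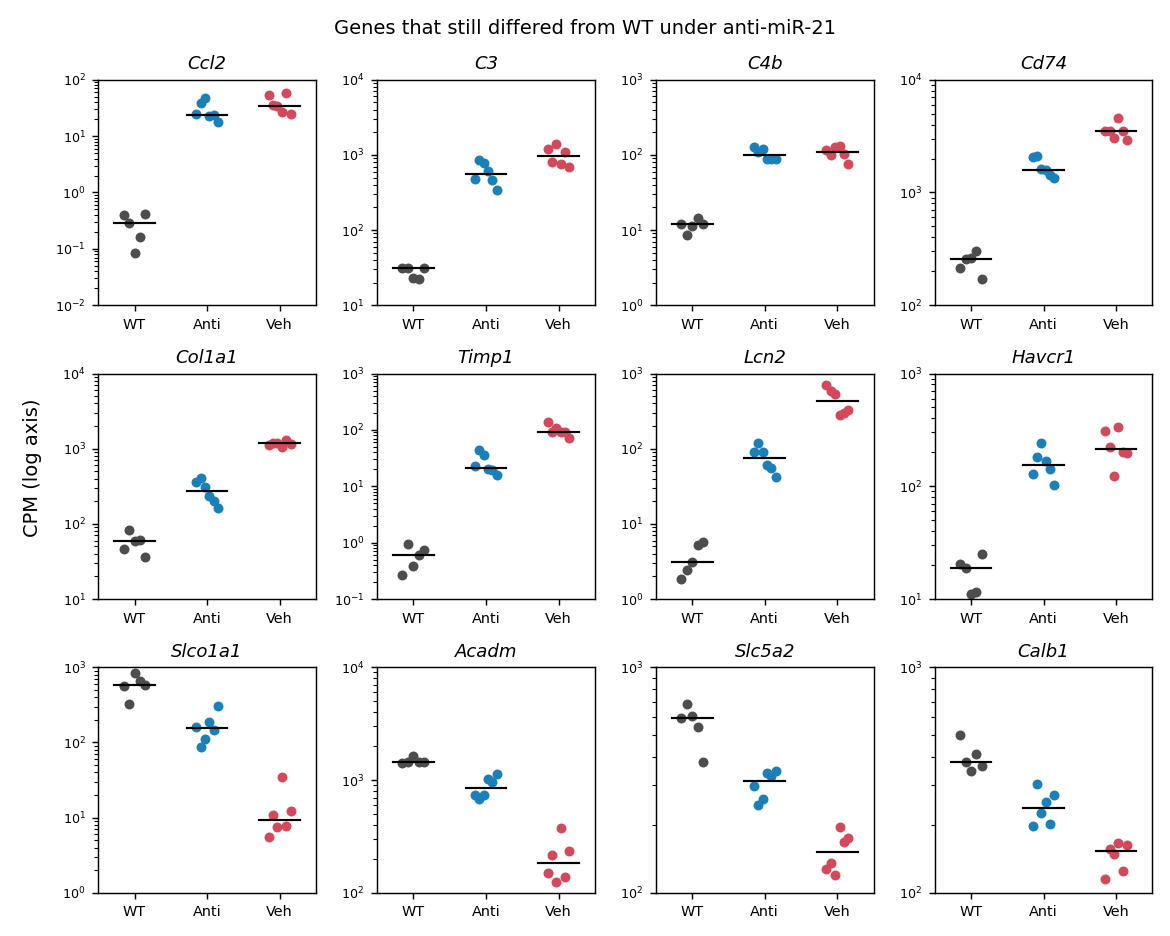
Level in CPM (vertical axis, log scale) of 12 genes that still differed from WT, in WT, Anti-miR-21 (Anti) and Veh mice; each point is a mouse and each line a group median. Ccl2, C3, C4b and Havcr1 in treated mice overlap with Veh mice, whereas Col1a1, Timp1, Lcn2, Slco1a1 and Acadm lie between WT and Veh mice without overlap.

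The interstitial matrix was lower than in the Veh mice for 29 of 32 genes, against 30.5% of all genes, and none of the 32 was within 1.5-fold of WT. Of the 32 genes 31 were higher than WT, against 23.9% of all genes, and 29 did not overlap between the groups, against 23.8%. Their median log2 difference was 1.78 against 3.20 in the Veh mice. Col1a1, a chain of fibrillar collagen I, had 46.3, 83.9, 58.6, 61.1 and 35.9 CPM in WT and 162 to 411 CPM, with a median of 272, in treated mice (2.29 ± 0.22 SE, adjusted p = 9.34e-08). The Veh mice had 1057 to 1315 CPM, so the 3 groups did not overlap. Col3a1 had 31.6 to 89.7, 160 to 435 and 1102 to 1704 CPM in the 3 groups, and Fn1, fibronectin, 17.9 to 50.1, 114 to 255 and 414 to 637 CPM. Timp1, the inhibitor of matrix metalloproteinases, had 0.267 to 0.943 CPM in WT and 15.9 to 43.8 CPM in treated mice (5.46 ± 0.35, adjusted p = 4.16e-10). Ltbp2, a fibrillin-associated protein of the matrix, had at most 0.861 CPM in WT and at least 16.2 CPM in treated mice (5.53 ± 0.33, adjusted p = 2.77e-10).

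Stromal cell markers were above WT. Of 10 fibroblast and myofibroblast markers 9 were higher and none was within 1.5-fold, against 23.9% and 47.1% of all genes. Their median was 1.14. Acta2, the smooth muscle actin of myofibroblasts, had 57.5, 56.1, 58.2, 83.5 and 82.3 CPM in WT and 78.9 to 109 CPM in treated mice. The groups overlapped, and the log2 difference was 0.49 ± 0.14 (SE, adjusted p = 0.00812), against 1.39 in the Veh mice. Postn, periostin, was not called (2.67 to 4.81 CPM in WT, 1.98 to 8.24 CPM in treated mice, adjusted p = 0.0712) and was not shown to be within 1.5-fold either. Pdgfra was called higher (0.88 ± 0.26, adjusted p = 0.0109), but not within flow cell A, with an adjusted p = 0.0774.

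The basement membrane was split by chain. Of 19 genes 12 were higher, 3 were lower and 5 were within 1.5-fold of WT, against 23.9%, 19.8% and 47.1% of all genes. Col4a1, of the α1/α2 network that persists when the mature network fails, had 203.6 to 370 CPM in WT and 450 to 645 CPM in treated mice (log2 difference 0.96 ± 0.12 SE, adjusted p = 3.16e-06). Col4a4, the partner of the disrupted gene on the same chromosome, stayed lower at 183 to 273 CPM against 296 to 362 CPM (−0.60 ± 0.10, adjusted p = 7.99e-05). Col4a5, the X-linked chain of that network, was within 1.5-fold of WT (95% interval −0.42 to 0.02, adjusted p = 0.00206), with 30.7 to 37.3 CPM against 30.6 to 41.1 CPM, although it was called lower without WT mouse A18.

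Podocyte transcripts were above WT. Of 15 podocyte markers 12 were higher and 1 was lower, against 23.9% and 19.8% of all genes, with a median of 0.69. Nphs1, nephrin of the slit diaphragm, had 18.7, 25.4, 18.03, 16.1 and 12.8 CPM in WT, 27.0 to 37.5 CPM in treated and 16.4 to 21.8 CPM in Veh mice. Every treated mouse was above every mouse of both other groups (log2 difference from WT 0.84 ± 0.13 SE, adjusted p = 4.39e-05; from Veh 0.76, adjusted p = 2.92e-05). The marker that stayed lower was Vegfa, the growth factor of the glomerular endothelium that tubules also make (singled out after its values were seen), with 258 to 327 CPM in WT and 168 to 239.5 CPM in treated mice (−0.41 ± 0.09, adjusted p = 0.00138). Relative to Veh, 5 podocyte markers were higher and 7 lower, against 28.8% and 30.5% of all genes.

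Markers of tubule injury were mostly above WT. Of 22 injury genes 18 were higher than WT and 1 was within 1.5-fold, against 23.9% and 47.1% of all genes. Their median was 1.91 against 3.25 in the Veh mice. Havcr1, which encodes the injury marker KIM-1, had 20.3, 18.7, 11.1, 11.4 and 25.2 CPM in WT and 103 to 241 CPM, with a median of 155, in treated mice (log2 difference 3.21 ± 0.28 SE, adjusted p = 1.81e-08). The treated mice overlapped with the Veh mice, which had 124 to 338 CPM (−0.53, adjusted p = 0.0571). Lcn2, the iron-carrier NGAL, had 1.83 to 5.79 CPM in WT, 41.8 to 119 CPM in treated and 283 to 710 CPM in Veh mice (4.37 ± 0.37 from WT, adjusted p = 1.38e-08). Krt20, a keratin of injured tubules, had at most 0.572 CPM in WT and at least 7.68 CPM in treated mice (5.74 ± 0.36, adjusted p = 4.03e-10).

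The gene within 1.5-fold was Krt8, a keratin of simple epithelia. It had 143, 121, 153, 159 and 146 CPM in WT, 149 to 207.6 CPM in treated and 326 to 605 CPM in Veh mice. The equivalence test placed it there (95% interval 0.03 to 0.53, adjusted p = 0.0206), although scaling by library totals or a fit of the 2 groups alone called it higher. Its partner Krt18, singled out after its values were seen, had 15.1 to 52.2 CPM in WT and 23.5 to 49.9 CPM in treated mice, against 117 to 305 CPM in Veh mice. It was not called (adjusted p = 0.475), but its interval was too wide to place it within 1.5-fold of WT (adjusted p = 0.433).

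Transcripts of the cell cycle were above WT. Of 23 cell cycle genes 22 were higher, against 23.9% of all genes, with a median of 1.70 against 2.54 in the Veh mice. Top2a, the topoisomerase of dividing cells, had 1.74, 1.76, 1.52, 1.76 and 1.55 CPM in WT and 6.67 to 13.7 CPM in treated mice (log2 difference 2.52 ± 0.21 SE, adjusted p = 1.39e-08), and Mki67 had 1.55 to 3.90 and 7.95 to 16.8 CPM. Of 14 genes of p53 and arrest 9 were higher and 4 were within 1.5-fold, against 23.9% and 47.1% of all genes. Cdkn1a, the inhibitor p21, had 6.64, 5.25, 8.87, 26.4 and 10.3 CPM in WT and 30.0 to 40.9 CPM in treated mice (1.53 ± 0.30, adjusted p = 0.000428). Gdf15, a stress cytokine, had 4.72 to 11.2 and 12.9 to 28.8 CPM (1.10 ± 0.31, adjusted p = 0.00734).

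Genes of the proximal tubule were mostly higher than in the Veh mice, but few were shown to be at WT level. Of 34 transport genes 31 were higher than in the Veh mice, against 28.8% of all genes. Compared with WT 20 were lower, 2 higher and 3 within 1.5-fold, against 19.8%, 23.9% and 47.1% of all genes. Their median was −0.48 against −2.09 in the Veh mice. Lrp2, megalin, the receptor that takes up filtered protein, had 1757, 1801, 1437, 1304 and 1388 CPM in WT and 871 to 1390 CPM in treated mice, against 180 to 460 CPM in Veh mice. Its difference from WT was at the threshold (−0.48 ± 0.19, adjusted p = 0.05003), and 5 of 19 alternative settings called it. Slc5a2, the glucose transporter SGLT2, stayed below without overlap, at 246 to 346 CPM against 381 to 689 CPM (−0.89 ± 0.15 SE, adjusted p = 8.39e-05). Slco1a1, an organic anion transporter, had 571, 323, 830, 651 and 588 CPM in WT, 86.0 to 306 CPM in treated and 5.47 to 35.1 CPM in Veh mice (−1.84 ± 0.38, adjusted p = 0.000747). The 2 higher genes were the sulfate transporter Slc13a1 (0.81, adjusted p = 0.00113) and the efflux pump Abcc4 (0.52), named because they are few.

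Of 34 genes of proximal tubule metabolism 18 were lower, 3 higher and 1 within 1.5-fold, against 19.8%, 23.9% and 47.1% of all genes. Their median was −0.55 against −2.33 in the Veh mice. Pck1, the gate enzyme of gluconeogenesis, had 1654 to 2887 CPM in WT and 807 to 1738 CPM in treated mice (log2 difference −0.78 ± 0.23 SE, adjusted p = 0.0108). Hpd, of tyrosine breakdown, had 31.5 to 93.3 CPM in WT and 19.3 to 63.5 CPM in treated mice with no call (−0.34 ± 0.42, adjusted p = 0.530), whereas the Veh mice had 0.420 to 6.02 CPM. Its interval, −0.98 to 0.27, is too wide to place it at WT level. Dnase1 was called lower (−1.01 ± 0.38, adjusted p = 0.0379), with 812 to 1489 CPM in WT and 214.8 to 868 CPM in treated mice, but 10 of 19 alternatives lost the call.

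Fatty acid oxidation genes were mostly lower than WT. Of 31 genes 19 were lower, 1 was higher and 13 were within 1.5-fold of WT, against 19.8%, 23.9% and 47.1% of all genes. Their median was −0.36 against −1.53 in the Veh mice. Acadm, the medium-chain acyl-CoA dehydrogenase, had 1427, 1436, 1626, 1457 and 1459 CPM in WT and 686 to 1128 CPM in treated mice, with no overlap (−0.75 ± 0.22 SE, adjusted p = 0.00820). Ppara itself, one of the genes whose site is shown above, had 4.94, 5.70, 4.77, 4.66 and 4.19 CPM in WT and 2.88 to 6.07 CPM in treated mice, within 1.5-fold of WT (95% interval −0.53 to 0.27, adjusted p = 0.0305), whereas the Veh mice had 1.22 to 3.73 CPM.

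Cyp4a14, a fatty acid hydroxylase of the metabolism list and a PPARα target, was singled out after its values were seen. It had 10.8, 43.7, 3.80, 5.56 and 19.7 CPM in WT and 39.8 to 141 CPM in treated mice (2.40 ± 0.53, adjusted p = 0.00115), and WT mouse A6 alone reached the treated range. The Veh mice had 26.4 to 88.7 CPM and were also called above WT (1.54, adjusted p = 0.0110). Between treated and Veh mice Cyp4a14 was not called (0.86, adjusted p = 0.117).

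Nuclear genes of oxidative phosphorylation were a little lower. Of 73 genes 64 were lower and none was higher, against 19.8% and 23.9% of all genes. Their median was −0.38, between extremes of −0.56 and −0.04, against −1.18 in the Veh mice. Of the 73 genes 29 were within 1.5-fold of WT, against 47.1% of all genes. Atp5a1, the α subunit of ATP synthase, had 2507 to 2817 CPM in WT and 1748 to 2285 CPM in treated mice (−0.42 ± 0.11 SE, adjusted p = 0.00304), and Sdha, of complex II, had 787 to 999.9 and 580 to 764 CPM. These small differences depended on the setting: 18 of the 73 genes were called lower with scaling by library totals and 24 within flow cell A.

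Beyond the proximal tubule, genes of the thick ascending limb and distal convoluted tubule were lower than WT in part. Of 9 thick ascending limb genes 6 were lower (median −0.56), against 19.8% of all genes. Umod, uromodulin, was within 1.5-fold of WT, with 4789 to 5719 CPM in WT and 3838 to 5118 CPM in treated mice (95% interval −0.57 to 0.21, adjusted p = 0.0456). Egf, made by the same segment and singled out after its values were seen, stayed lower: 1412, 1289, 1003, 1014 and 1336 CPM in WT, 347 to 760 CPM in treated and 16.6 to 125 CPM in Veh mice (−1.26 ± 0.39 SE, adjusted p = 0.0133). Of 8 distal convoluted tubule genes 4 were lower, against the same 19.8% of all genes. Calb1, calbindin, had 347 to 503 and 198 to 303 CPM (−0.73 ± 0.12, adjusted p = 8.66e-05), and Slc12a3, the thiazide-sensitive cotransporter, overlapped between the groups (−0.54 ± 0.15, adjusted p = 0.00733). Of 9 intercalated cell genes 6 were lower (median −0.55), among them the anion exchanger Slc26a4 with 45.7 to 79.5 and 34.5 to 50.1 CPM, which lost its call in 7 of 19 alternatives.

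Principal cell genes of the collecting duct were mostly lower than WT. Of 10 principal cell genes 8 were lower than WT, against 19.8% of all genes. In the Veh mice 6 were lower, against 34.0% of all genes. The median was −0.80 in the treated mice and −0.51 in the Veh mice. Between treated and Veh mice 2 were called higher and 1 lower, against 28.8% and 30.5% of all genes, with a median of 0.11. The mean log2 difference of the list from the WT mean was −0.82 to −0.64 in the treated mice, inside the −1.24 to −0.35 of the Veh mice. Aqp2, the vasopressin-regulated water channel, had 163, 290, 435, 504 and 355 CPM in WT, 142 to 219.1 CPM in treated and 143 to 403 CPM in Veh mice. WT mouse A3 lay within the treated range, and the log2 difference was −0.95 ± 0.27 (SE, adjusted p = 0.00732). Between treated and Veh mice it was not called (−0.38, adjusted p = 0.211). Aqp4, a basolateral water channel singled out after its values were seen, had 50.2 to 92.2 CPM in WT and 12.9 to 32.5 CPM in treated mice (−1.58 ± 0.34, adjusted p = 0.000884). Elf5, a transcription factor of principal cells singled out likewise, was lower than both: 1.83, 1.80, 6.08, 12.6 and 5.16 CPM in WT, 0.760 to 1.81 CPM in treated and 2.45 to 9.58 CPM in Veh mice (−2.14 ± 0.47 from WT, adjusted p = 0.00124). WT mouse A6 touched the treated range. Within flow cell A 4 of the 10 genes were called lower.

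Of 10 renin-angiotensin genes 6 were within 1.5-fold of WT, against 47.1% of all genes, 1 was lower and 1 higher, with a median of −0.13 against −1.03 in the Veh mice; with library totals the median was 0.11. Ren1, renin, had 80.4, 98.2, 72.3, 80.6 and 41.7 CPM in WT, 62.1 to 93.9 CPM in treated and 23.8 to 37.7 CPM in Veh mice (95% interval −0.19 to 0.51, adjusted p = 0.0235). Ace, the enzyme that makes angiotensin II, singled out after its values were seen, was the gene that stayed lower, with 254 to 414 CPM in WT and 143 to 243 CPM in treated mice (−0.82 ± 0.20 SE, adjusted p = 0.00223). Agt, its precursor angiotensinogen, singled out likewise, was the higher one (0.38, adjusted p = 0.00357), with overlap.

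Of 12 endothelial genes 6 were higher, against 23.9% of all genes, with a median of 0.36. Kdr, the VEGF receptor, was within 1.5-fold of WT, with 39.8, 61.9, 56.8, 44.2 and 18.3 CPM in WT and 38.3 to 48.4 CPM in treated mice. Pecam1 was called higher (0.50 ± 0.17 SE, adjusted p = 0.0212) with 39.7, 55.2, 54.5, 52.0 and 20.4 CPM in WT and 54.0 to 71.4 CPM in treated mice. WT mouse A18 was the lowest of all mice for both genes, and without it the median of the list was 0.19.

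**Figure D4:**
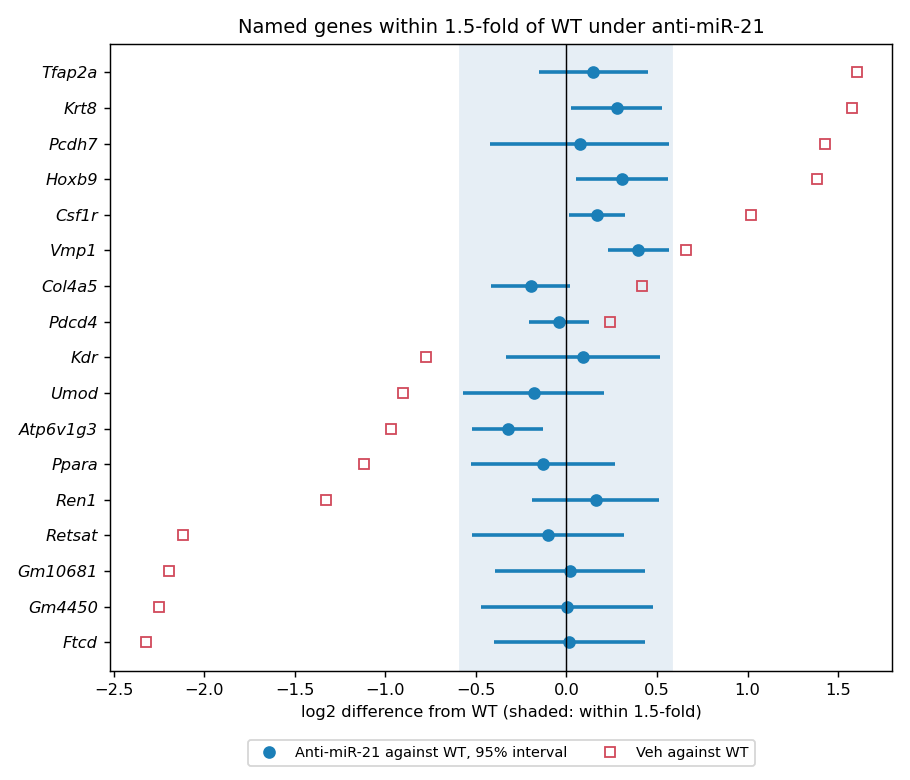
Log2 difference from WT (horizontal axis) of 17 named genes placed within 1.5-fold of WT under anti-miR-21; circles with lines are the estimate and its 95% interval in treated mice, open squares the estimate in Veh mice, and the shaded band spans 1.5-fold on either side. All 17 lines lie inside the band.

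Among the protein-coding genes back at WT level and above a minimum mean level, those that the Veh mice had lost most were Ftcd, Gm4450, Gm10681 and Retsat. Retsat, the retinol saturase, had 317, 291, 252, 241 and 253 CPM in WT, 203.4 to 321 CPM in treated and 42.2 to 100.01 CPM in Veh mice (log2 difference from WT −0.09, 95% interval −0.52 to 0.32, equivalence adjusted p = 0.0289; −2.12 in Veh). Ftcd, which couples histidine breakdown to folate, had 18.3 to 34.7, 16.7 to 36.7 and 2.52 to 9.20 CPM (0.02 from WT, equivalence adjusted p = 0.0122). Gm10681 and Gm4450, predicted genes on chromosome 3 that overlap other annotated genes, differed by −0.01 and −0.03 from WT and by −2.20 and −2.25 in the Veh mice.

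Among the genes ranked in the same way, those that the Veh mice had gained most were Tfap2a, Krt8, Pcdh7 and Hoxb9. Tfap2a, a transcription factor of epithelial development, had 4.68, 5.21, 4.77, 6.17 and 6.75 CPM in WT, 5.61 to 6.67 CPM in treated and 13.1 to 20.4 CPM in Veh mice (0.14 from WT, 95% interval −0.15 to 0.45, equivalence adjusted p = 0.00832). Library totals or flow cell A alone called it higher. Hoxb9, a patterning gene, had 25.5 to 36.2 and 31.7 to 45.5 CPM, was within 1.5-fold (equivalence adjusted p = 0.0378) and was also called slightly higher (0.31 ± 0.12, adjusted p = 0.0431), a call lost in 9 of 19 alternatives. Pcdh7, a protocadherin, differed by 0.02 from WT and by 1.43 in the Veh mice.

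Some genes lay outside the range of both other groups. Under anti-miR-21, 104 genes were called higher and 127 lower than both WT and Veh mice, and 29 and 8 of them did not overlap with any mouse of either group. Fgfbp1, a carrier of fibroblast growth factors, had 3.65, 2.21, 2.96, 3.88 and 3.40 CPM in WT, 6.20 to 10.1 CPM in treated and 3.66 to 4.07 CPM in Veh mice (log2 difference from WT 1.28 ± 0.14 SE, adjusted p = 6.31e-07). Myom2, of the sarcomeric M-band, had 6.33 to 11.9, 15.0 to 19.4 and 8.75 to 11.7 CPM (0.95 ± 0.12, adjusted p = 3.46e-06). On the lower side, Wnt9b, a Wnt ligand of the collecting duct lineage that induces nephron tubules, had 3.79, 3.20, 7.22, 18.6 and 6.63 CPM in WT, 1.42 to 3.20 CPM in treated and 5.11 to 20.8 CPM in Veh mice (−1.66 ± 0.44, adjusted p = 0.00455). The highest treated and the lowest WT value both round to 3.20 CPM, the treated one being lower. Foxq1, a forkhead factor, had 11.0 to 22.98, 7.16 to 8.28 and 11.0 to 27.3 CPM (−0.87 ± 0.24, adjusted p = 0.00602). Fzd6, a Wnt receptor, had 12.4 to 18.9, 8.89 to 11.9 and 14.7 to 22.1 CPM (−0.43 ± 0.13, adjusted p = 0.0110). WT mouse A17 stood above the others for Wnt9b and Foxq1, and within flow cell A neither was called, while library totals ended the call of Fzd6.

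**Figure D5:**
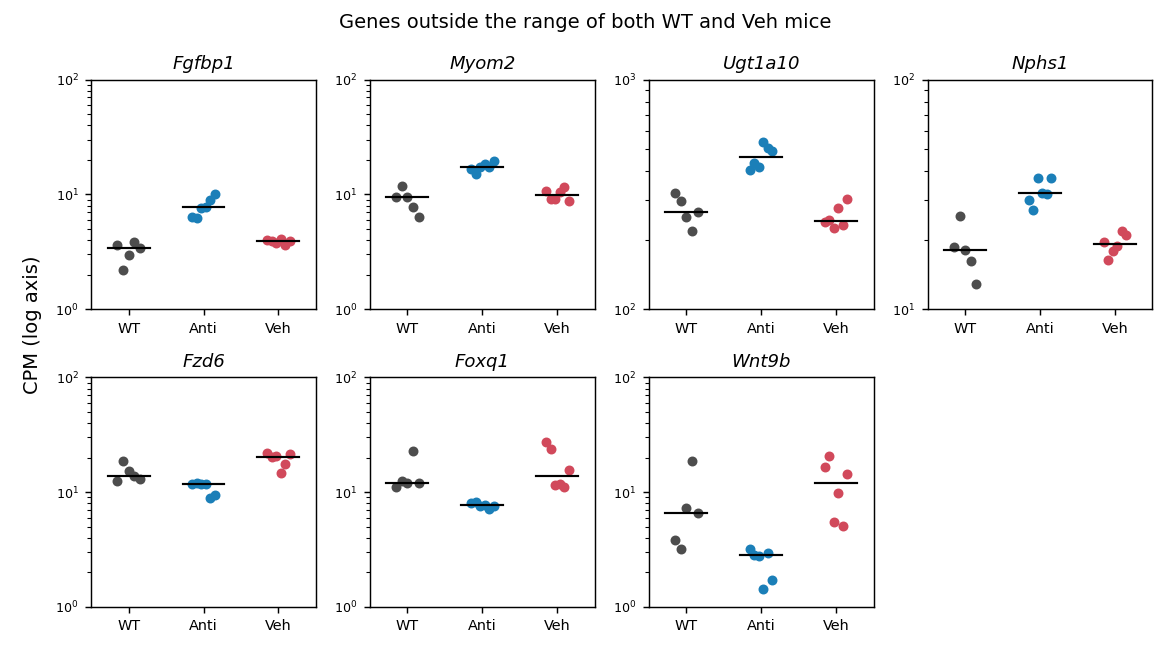
Level in CPM (vertical axis, log scale) of 7 genes whose treated mice (Anti) lay outside the range of both WT and Veh mice; each point is a mouse and each line a group median. Fgfbp1, Myom2, Ugt1a10 and Nphs1 lie above both groups, and Fzd6, Foxq1 and Wnt9b below both.

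In 4 genes that differed by at least 2-fold in the Veh mice, the treated mice were called on the other side of WT; they are named because they are few. Cyp2c23, an arachidonic acid epoxygenase, had 19.1 to 30.0 CPM in WT, 32.9 to 42.5 CPM in treated and 7.45 to 16.2 CPM in Veh mice (0.58 ± 0.16 SE from WT, adjusted p = 0.00613; −1.14 in Veh). Mbl1, a mannose-binding lectin, followed the same order (0.57 ± 0.22, adjusted p = 0.0393; −1.08 in Veh). Arg1, arginase 1, and Scube2 went from higher to lower, at under 1 CPM in every WT and treated mouse and with overlap between those groups.

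Set against WT, genes with a miR-21 seed match had values close to those of genes without one. Of 15231 tested genes with an annotated 3' UTR, 1161 (7.62%) held ATAAGCT, the DNA letters of the match, searched on the transcribed strand only and in 1 UTR per gene. Of these 295 were higher and 258 lower than WT (47.6% called in all), with a median log2 difference of 0.00. Among the 14070 genes without a match 47.3% were called, with a median of 0.01. The 347 genes whose match is followed by A, all of them among the 1161, had a median of 0.04. Relative to Veh, 391 of the 1161 genes with a match were higher and 322 lower, with a median of −0.004. Without a match 4145 of the 14070 genes were higher and 4708 lower, with a median of −0.06. Of the 347 genes 121 were higher and 88 lower than in the Veh mice, with a median of 0.008. The difference between these sets was not tested. A match is a description of letters and not a functional site.

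Of 19 reported targets 8 were higher, 4 lower and 9 within 1.5-fold of WT, against 23.9%, 19.8% and 47.1% of all genes, with a median of 0.18 against 0.28 in the Veh mice. Pdcd4, an inhibitor of translation, had 36.1, 37.0, 45.6, 37.4 and 33.9 CPM in WT and 33.6 to 43.3 CPM in treated mice, within 1.5-fold of WT (95% interval −0.21 to 0.12, adjusted p = 4.46e-06), and was lower than in the Veh mice (−0.29, adjusted p = 0.00250). Of the other genes whose sites are shown, Spry1, which dampens growth factor signalling, and Reck, an inhibitor of matrix metalloproteinases, were higher than WT by 0.62 and 0.43 on the log2 scale, against 1.22 and 0.94 in the Veh mice. Timp3, another such inhibitor, was called lower (−0.41, against −1.38 in the Veh mice). Vmp1, the gene whose transcript holds miR-21, had 143, 144, 155, 163 and 168 CPM in WT and 185 to 233 CPM in treated mice (0.40 ± 0.09 SE, adjusted p = 0.000965), against 198 to 269 CPM in Veh mice. Vmp1 RNA is not a measure of mature miR-21, which these libraries were not made to capture.

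Genes near the disrupted gene were also examined. Within 10 Mb of Col4a3 (GRCm38 1:82586921-82722059) 170 genes were tested, of which 83 (48.8%) were called, near the 43.7% of all genes, and 53 (31.2%) did not overlap, against 23.8%. Ccl20, given above, is one of them. Gbx2, a homeobox gene, had no count in WT and 1 to 14 counts in treated mice, at least 1.71-fold higher against the floor. D130058E05Rik, a noncoding transcript, had 6 counts over the WT mice and 110 over the treated mice, a ratio of 12.96 with a counting interval of 5.77 to 36.1. Gm20528, which overlaps the Ugt1a genes, was called lower with 7.80 CPM in WT mouse A18 and at most 0.891 CPM in the other WT mice, and lost the call without A18.

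The Ugt1a cluster, which lies within the same 10 Mb of Col4a3, held a pair of opposite calls. Ugt1a7c (1:88095062-88220002) had 547, 452, 437, 420 and 355 CPM in WT and 75.8 to 125 CPM in treated mice (log2 difference −2.22 ± 0.20 SE, adjusted p = 4.27e-08). Ugt1a10 (1:88055388-88219004) had 218.4 to 320 CPM in WT and 405 to 536 CPM in treated mice (0.78 ± 0.11, adjusted p = 1.09e-05). Ugt1a2 was also called higher (2.66 ± 0.48, adjusted p = 0.000202), and 6 further members were not called. The Ugt1a genes share their last exons and each overlaps many annotated genes, so reads can be split among them and each value is uncertain.

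Ctxn3, a cortexin, was lower without overlap, at 3.98 to 18.1 CPM in WT and 1.38 to 3.02 CPM in treated mice (−2.67 ± 0.34 SE, adjusted p = 3.12e-06). Blood and fat were checked through their markers. Of 7 erythroid genes 2 were lower and 1 was higher, near the 43.7% called over all genes, and the groups overlapped for all of them. Leaving out 1 mouse gave 0 to 3 lower, with 0 without WT mouse A3 or A6 or without any 1 of the treated mice. Their summed level was 1100 to 6563 CPM in WT and 757 to 1484 CPM in treated mice. Hbb-bs had 383 to 2584 CPM in WT and 288 to 606 CPM in treated mice (adjusted p = 0.124), against 4.93 to 150 CPM in Veh mice. Of 7 adipocyte genes none was called, and their median difference was 2.54, or 0.78 without treated mouse A12. Their summed level was 25.7 to 52.0 CPM in WT and 43.8 to 271 CPM in treated mice, and Adipoq had 0.205 to 1.64 and 0.621 to 30.1 CPM, the highest in mouse A12. The extraction text of the labels speaks of adipose tissue while the tissue label is kidney, and Umod and Slc22a6 at 1053 CPM or more in every WT and treated mouse are those of kidney. Of 2 adrenal markers tested none was called. The part of these tissues in the results was not tested.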

How the data were processed

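Total RNA of whole kidney from 20 mice was sequenced by the authors as 100 bp paired-end reads and mapped to GRCm38 in OmicSoft Studio. The deposited table holds the authors' estimated counts per gene, not normalized, which were rounded to whole numbers. The deposited FPKM table, normalized by the authors for length and depth, served only as an alternative, and 3 of its columns that matched no sample were not used. Genes were filtered with filterByExpr (minimum count 10, total 15) and scaled by TMM. The edgeR 4.0.16 quasi-likelihood test (R 4.3.3) was fitted over the WT, Veh, Anti-miR-21 and ACE inhibitor mice, with Benjamini-Hochberg adjustment over all genes and a threshold of 0.05. Each SE was derived from the log2 difference and its F statistic. Equivalence to WT was tested with limma 3.58.1 (voom) as a pair of one-sided tests against a margin of 1.5-fold, adjusted likewise, and the 95% intervals come from that fit. Groups were taken from the labels, and mice are separate animals with unique names. Named genes were those with the largest differences in each class, the leading genes of each list, the type IV collagen chains, Vmp1 and genes near Col4a3. The ranking in each class covered only protein-coding genes above a minimum mean level. Genes ranked for a residual difference also had to show no overlap between treated and WT mice. Other genes were named after their values were seen. The members and gene lists were chosen with earlier results of these data known. Alternatives covered scaling, filters, DESeq2 1.42.0, flow cell, FPKM, margins of 1.25-fold and 2-fold and leaving out each mouse. The scripts were tested on simulated data. Results for a few genes are not reported here.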

Additional observations from a re-analysis of the deposited data

Results flagged for a closer look

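Among the named genes and list scores, a mouse stood far from the rest of its group, by a gap larger than the Dixon 95% critical value, in 17 of 244 groups checked (6.97%). Chance flags about 1 in 20 groups if values are normally distributed and the groups independent. Gene levels were checked as CPM without logs and some of the genes are related, so that rate is only a rough guide. In WT mouse A17, Cxcl2 had 0.204 CPM (0.0445 to 0.0845 in the other WT mice), Foxq1 22.98 CPM (11.0 to 12.6), Wnt9b 18.6 CPM (3.20 to 7.22) and Cdkn1a 26.4 CPM (5.25 to 10.3). In WT mouse A6, Hbb-bs had 2584 CPM (383 to 843), Alas2 had 121 CPM (16.1 to 35.6) and the score of the cell cycle list, its mean log2 difference from the WT mean, was 0.28 (−0.11 to −0.02). Acadm had 1626 CPM in WT mouse A14 (1427 to 1459), Dnase1 had 1489 CPM in A3 (812 to 1008), and Gm20528 had 7.80 CPM in A18 (0 to 0.891). The renin-angiotensin score of A18 was −0.21 (0.02 to 0.11 in the other WT mice).

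Among the treated mice, A12 had 30.1 CPM of Adipoq (0.621 to 6.42 in the others) and 23.6 CPM of Plin1 (0.518 to 4.10). Mouse A10 had 40.9 CPM of Cdkn1a (30.0 to 33.5) and 28.8 CPM of Gdf15 (12.9 to 16.9). Jchain had 27.5 CPM in A15 (6.49 to 11.5), and Col4a5 had 37.3 CPM in A2 (30.7 to 33.0).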

How the results depend on the processing

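Scaling by library totals alone gave 7719 genes higher and 998 lower, log2(FPKM + 1) gave 6953 and 930, and log2(FPKM + 0.1) gave 7420 and 906. These shifted the median gene to 0.26, 0.14 and 0.23 on the log2 scale and the share of higher calls to 88.6%, 88.2% and 89.1%. Genes called at 2-fold or more numbered 866 with log2(FPKM + 1) and 1181 with 10 counts in every mouse, which tested fewer genes. Within flow cell A, which holds fewer mice, 2262 genes were lower. The narrower margin placed 3010 genes within WT. The share back at WT level among genes of at least 2-fold difference in Veh mice was 0.0488% with that margin, 33.3% with a margin of 2-fold, 22.5% for Veh differences from 1.5-fold, 11.98% with 10 counts in every mouse and 14.4% for genes averaging 5 log2 CPM or more, a setting added after seeing the data. Leaving out 1 mouse gave 6652 to 7935 genes called, 3767 to 4291 higher, 2843 to 3644 lower, 7848 to 8349 within 1.5-fold, 2087 to 2422 at 2-fold or more and 3.38% to 7.30% back. The median of the renin-angiotensin list became 0.11 with library totals, and that of the adrenal list ranged from −0.15 without Anti-miR-21 mouse A8 to 0.43 without WT mouse A18. DESeq2 called 8159 genes. No paired analysis was possible because the mice carry unique names and share no replicate numbers.

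The 5 WT mice, the absence of injections in them and the uneven flow cells limit these comparisons. Genes with few counts had intervals too wide to be placed at WT level, and differences under about 1.5-fold depended on the scaling.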
